A study of Mus musculus with 4 samples.

Results

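This account covers 9 genes that set or brake entry into the cell cycle: the 3 D-type cyclins Ccnd1, Ccnd2 and Ccnd3, the CDK inhibitors Cdkn1a, Cdkn1b and Cdkn2c, and the stress and p53-response genes Mdm2, Gadd45a and Gadd45b. They were chosen by name, and every probe set annotated to 1 of them alone was taken, 25 of the 45101 probe sets on the array and 9 of 18194 named genes. RNA came from mouse embryonic 3T3 fibroblasts, an immortal line, on 4 Affymetrix 430 2.0 arrays, 1 per group. Cells of all 4 groups were grown in 10% serum, with 24 h of preculture, and then held overnight in 0.5% serum. They received the inflammatory cytokine TNF (tumour necrosis factor) for 0.5 h, 2 h or 12 h, or were harvested without it (basal). The TNF dose was 10 ng/ml at 0.5 h and 12 h; the treatment text of the 2 h array names none and repeats that of the basal array, so this array is placed at 2 h of TNF by its title and source name, and every 2 h ratio rests on them. All 4 groups share the low serum, and no array of cells kept in it for the added hours without TNF was analysed here, so TNF and elapsed time cannot be told apart.

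The D cyclins bind CDK4 and CDK6, and the active kinase phosphorylates the retinoblastoma protein, which releases E2F factors and lets the cell enter S phase. Inhibitors of the INK4 family (Cdkn2c encodes p18) bind CDK4 and CDK6 themselves, while Cdkn1a (p21) and Cdkn1b (p27) bind cyclin and kinase together. The transcription factor p53 induces Cdkn1a, Gadd45a and Mdm2 after DNA damage, and the MDM2 protein marks p53 for destruction. Gadd45b belongs to the same family as Gadd45a but is known as a target of NF-kB, the factor that TNF activates.

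With 1 array in each group there is no spread between replicates and no test was run. A gene is said to rise or fall if its signal differed from basal by at least 2-fold on its representative probe set, the one with the highest mean log2 signal. Signals are linear intensities. Those under 9.08, the 30th percentile of all values, were raised to that floor, and a signal above 102, the 75th percentile, is called clear. As a measure of scatter, the ratio of each probe set is set beside the range that held the central 95% of the 1000 probe sets nearest to it in mean signal. That range includes real changes and is a description; 5% of probe sets lie outside it by its making.

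Of the 9 genes, 1 rose and 0 fell at 0.5 h, 0 rose and 1 fell at 2 h, and 0 rose and 1 fell at 12 h. Gadd45b was the gene that rose, Mdm2 the one that fell at 2 h and Cdkn2c the one that fell at 12 h. Over the 16270 genes analysed, 2.55% rose and 2.96% fell at 0.5 h, 2.58% and 3.60% at 2 h, and 2.79% and 5.18% at 12 h, and 1 gene of 9 in a direction is too few to read against these shares. Most of those calls came from low signals. Raising every signal to 102 left 7312 genes. Of these, 0.328% rose and 0.0137% fell at 0.5 h, 0.479% and 0.164% at 2 h, and 0.615% and 1.72% at 12 h. The same 3 calls of the 9 genes were made. That floor could not change them, because these 3 genes had representative signals above 102 on all 4 arrays. The median log2 ratio of the 9 genes was -0.02 at 0.5 h, -0.04 at 2 h and -0.40 at 12 h, against -0.03, -0.09 and -0.14 over all genes analysed.

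**Figure D1:**
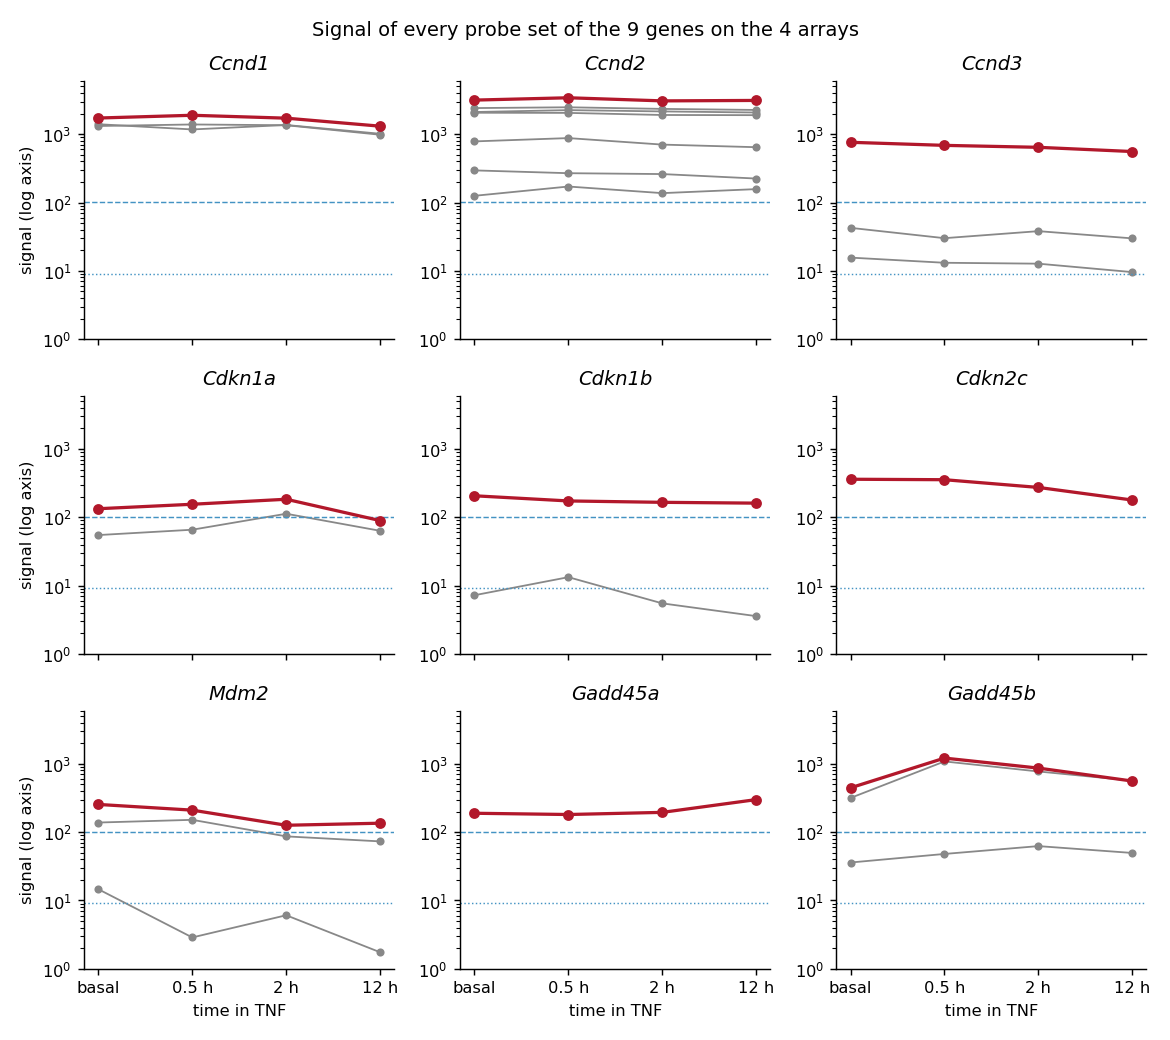
Signal on a log axis against time in TNF for the 25 probe sets of the 9 genes, with the representative probe set in red, the others in grey, and lines at 9.08 (dotted) and 102 (dashed). The 2 clear probe sets of Gadd45b peak at 0.5 h, those of the D cyclins run nearly level, and Cdkn2c is lowest at 12 h.

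Promoter windows of 300 bases, 250 before and 50 from the transcription start on, were found in the RefSeq table for 7 of the 9 genes, in 10 windows of build GRCm38.p6. Each was searched on both strands for the paired core of a p53 site (CATGNNNNNNCATG), a kappaB site (GGGNNTTTCC), an E2F site (GCGGGAA), a cAMP response element (TGACGTCA) and a TATA box (TATAAA). The shares of all 32817 windows that held them were 0.710%, 1.63%, 4.60%, 1.79% and 13.6%. No 2 matches overlapped. The 3 windows shown are those of the 10 that held any match, 1 each, and belong to Gadd45b, Cdkn1a and Cdkn2c. A single match to a motif in 10 windows is too few to read against the shares of all windows. Capitals mark the matched letters: the TATA box that begins 46 bases before the start of Gadd45b (chr10:80929841-80930140, plus strand), the p53 core pair that begins 48 bases before the upstream start of Cdkn1a (chr17:29090729-29091028, plus strand), and the E2F letters, on the opposite strand, at 25 bases before a start of Cdkn2c (chr4:109666707-109667006, minus strand).
Gadd45b: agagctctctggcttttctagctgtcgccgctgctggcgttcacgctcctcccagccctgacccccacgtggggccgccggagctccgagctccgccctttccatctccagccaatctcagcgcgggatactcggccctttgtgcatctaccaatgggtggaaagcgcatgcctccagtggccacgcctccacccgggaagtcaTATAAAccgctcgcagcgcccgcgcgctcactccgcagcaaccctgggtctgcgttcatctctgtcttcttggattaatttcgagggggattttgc
Cdkn1a: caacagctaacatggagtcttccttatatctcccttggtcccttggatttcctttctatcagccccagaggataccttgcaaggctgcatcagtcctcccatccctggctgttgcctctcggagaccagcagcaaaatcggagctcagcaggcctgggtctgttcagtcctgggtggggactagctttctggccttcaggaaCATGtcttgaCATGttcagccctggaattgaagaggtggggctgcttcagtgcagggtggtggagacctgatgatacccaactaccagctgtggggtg
Cdkn2c: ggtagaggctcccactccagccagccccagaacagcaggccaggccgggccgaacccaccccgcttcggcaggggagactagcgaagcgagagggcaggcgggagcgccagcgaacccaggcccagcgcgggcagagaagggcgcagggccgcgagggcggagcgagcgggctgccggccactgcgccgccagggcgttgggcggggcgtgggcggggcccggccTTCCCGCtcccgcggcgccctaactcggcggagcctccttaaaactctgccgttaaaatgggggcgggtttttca
Cdkn1a has a second listed window, at its downstream start (chr17:29093519-29093818), with 0 matches. Cdkn2c too has another listed window (chr4:109665323-109665622), with 0 matches, and that of Mdm2 (chr10:117710709-117711008) also had 0. Neither the kappaB site nor the cAMP response element was matched in any of the 10 windows, that of Gadd45b included. Ccnd1 and Ccnd2 had no listed window and were not searched. A match is a run of letters and not evidence of binding, and these windows hold only the bases next to each start.

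Gadd45b, whose protein binds the kinases MAP3K4 and MAP2K7 upstream of p38 and JNK, had signals of 446 (basal), 1214 (0.5 h), 866 (2 h) and 560 (12 h) on probe set 1450971_at. On 1449773_s_at the signals were 317, 1085, 773 and 567 in the same order. Both probe sets were highest at 0.5 h and then declined at each later time, and neither came back to its basal signal. At 0.5 h they stood 2.72-fold and 3.42-fold above basal, with a mean log2 ratio of 1.61 ± 0.23 (SD over 2 probe sets of the same arrays, which are not replicates). Probe sets of like signal had ratios between -0.31 and 0.25 around the first of these and between -0.32 and 0.21 around the other. At 2 h the log2 ratios were 0.96 and 1.29, so the representative probe set was just short of 2-fold while the other was past it, and both lay above the ranges of like probe sets, which ended at 0.27 and 0.28. At 12 h they were 0.33 and 0.84, and the upper ends were 0.46 and 0.45. The 12 h signal of the representative probe set was 2.17-fold under that at 0.5 h. Probe set 1420197_at had signals of 36.0, 48.0, 62.5 and 49.6 and was not clear on any array; its highest value was at 2 h.

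Gadd45b passed 2-fold at 0.5 h under each of 9 alternative floors, scalings and choices of probe set, with a log2 ratio between 1.21 (mean of its 3 probe sets) and 1.497 (median centring). The floors, no floor and the probe set highest in basal cells could only return the same 1.45. Its signals on that probe set were all above 102. At 2 h it was 1.05, 1.07 and 1.07 with median centring, quantile normalization and cyclic loess, which puts it past 2-fold. Among 6793 genes with a mean signal above 102, the 3 closest to Gadd45b in their 3 log2 ratios were Ier3, Rrp9, which encodes a nucleolar protein, and the kinase gene Pim1. Their Euclidean distances, over the 3 ratios, were 0.72, 0.75 and 0.85 (log2), far wider than the distances found for the other genes below. Ier3, an early response gene that limits cell death, had ratios of 1.98, 1.24 and 0.72. These distances hold for the representative probe set of Gadd45b alone. On its other clear probe set, 1449773_s_at, Gadd45b had ratios of 1.77, 1.29 and 0.84, near those of Ier3. Like both of these probe sets, Ier3 was highest at 0.5 h and then declined at each later time.

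Gadd45a, the relative of Gadd45b known for its induction by p53, had 1 probe set (1449519_at), with signals of 189 (basal), 181 (0.5 h), 195 (2 h) and 300 (12 h). It differed little between the first 3 arrays and was highest at 12 h. The 12 h log2 ratio was 0.66, short of 2-fold but above the range of like probe sets, from -0.99 to 0.47; it was 0.90 at most under the other scalings. At 0.5 h Gadd45a had a ratio of -0.06, where Gadd45b had 1.45. Gadd45g, the other member of the family, had signals of 775, 744, 494 and 556 and ratios of -0.06, -0.65 and -0.48. The highest signals thus lay at 0.5 h for Gadd45b and at 12 h for Gadd45a. That of Gadd45g lay in basal cells, but its 0.5 h signal was nearly equal, at a ratio of -0.06.

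The list of the GADD45 family and its kinase partners had 7 genes analysed of 8. Of these, 0 rose at any time, 0 fell at 0.5 and 2 h and 1 fell at 12 h, where 5.18% of all genes analysed fell. The 1 gene was Map2k6, which encodes a kinase upstream of p38, with low signals of 10.4 at 12 h and 27.7 in basal cells. Map3k4, the kinase that GADD45 proteins activate, had ratios of 0.41, 0.19 and -0.15. Ppp1r15a, named GADD34 for its response to growth arrest and DNA damage, had 0.44, -0.43 and 0.36, and Ddit3, which encodes the stress factor CHOP, 0.21, 0.05 and 0.36; its other probe set had -1.36 at 12 h. The medians of the list were 0.21, -0.16 and -0.15, against -0.03, -0.09 and -0.14 over all genes analysed.

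Mdm2, the ubiquitin ligase gene that p53 itself induces, had signals of 255 (basal), 210 (0.5 h), 126 (2 h) and 135 (12 h) on 1423605_a_at. The other probe set with a clear signal on some arrays, 1427718_a_at, gave 138, 152, 86.7 and 73.3. Both were high on the basal and 0.5 h arrays and low at 2 and 12 h. At 2 h the signal stood 2.02-fold below basal on the first and 1.59-fold below on the other, log2 ratios of -1.01 and -0.67. Like probe sets ran from -0.65 to 0.41 and from -0.71 to 0.58. At 12 h both probe sets gave nearly the same ratio, -0.91 and -0.92, inside ranges that began at -1.07 and -1.04. The remaining probe set, 1457929_at, was under the floor on all TNF arrays and at 14.6 in basal cells.

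The call on Mdm2 at 2 h was marginal. Its log2 ratio was -0.92 with median centring, -0.89 with quantile normalization, -0.89 with cyclic loess and -0.79 with the mean of its probe sets, each lower than basal and each short of 2-fold. The genes of clear signal with the closest ratios were Kcnf1, Lpar6 and Irf2bp2, at distances of 0.14, 0.14 and 0.16 over the 3 ratios. Irf2bp2, which encodes a transcriptional corepressor, had signals of 619, 523, 333 and 306, low like Mdm2 on the 2 h and 12 h arrays. Lpar6, a receptor gene for lysophosphatidic acid, had 296, 267, 149 and 151, and the potassium channel gene Kcnf1 had 199, 180, 101 and 104.

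Cdkn1a, the p21 gene, had signals of 134 (basal), 155 (0.5 h), 184 (2 h) and 89.6 (12 h) on 1424638_at. On 1421679_a_at they were 55.0, 65.9, 113 and 63.5. Both probe sets were highest at 2 h, but they parted at 12 h, where the first was under its basal signal and the other above it. At 2 h the log2 ratios were 0.46 and 1.04; the second is 2.05-fold and lay above its like probe sets (-0.91 to 0.68), while the representative, at the top of its own range (-0.67 to 0.47), decided the rule and was short of it. At 12 h the ratios were -0.58 and 0.21, both inside their ranges. Between 2 h and 12 h the representative signal fell 2.05-fold and the other was 1.78-fold lower.

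Cdkn1b, the p27 gene, had signals of 207, 174, 166 and 161 on 1434045_at. The basal array was the highest, and the 3 TNF arrays lay close together, with log2 ratios of -0.25, -0.32 and -0.36 that were inside the ranges of like probe sets. Its other probe set, 1419497_at, was under the floor on 3 arrays and at 13.3 at 0.5 h. Of the 10 genes listed as regulators of p27 and p21, 0 rose and 0 fell at any time. Over all genes analysed, between 2.55% and 5.18% passed 2-fold in a given direction, so such a short list tells little. Foxo3, whose factor induces Cdkn1b, had ratios of -0.14, 0.26 and 0.56, and Foxo1 -0.01, -0.15 and -0.67. The genes for subunits of the ligase that destroys p27, Skp1 and Cks1b, had -0.59 and -0.33 at 12 h. Over their probe sets the 12 h ratios ran from -0.59 to -0.21 for Skp1 and from -0.63 to -0.33 for Cks1b. Those of Foxo1 ran from -0.96 to 0.00 and those of Foxo3 from 0.00 to 0.56. The ends at 0.00 come from probe sets whose basal and 12 h signals were both raised to the floor, so they measure no ratio.

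Cdkn2c, the p18 gene, had 1 probe set (1416868_at), with signals of 361 (basal), 355 (0.5 h), 274 (2 h) and 179 (12 h). The basal and 0.5 h arrays were alike, 2 h lay lower and 12 h lowest. Its log2 ratios were -0.02, -0.40 and -1.01, the last a fall of 2.02-fold at the very edge of the range of like probe sets, from -1.01 to 0.50. With median centring, quantile normalization and cyclic loess it was -0.86, -0.78 and -0.77, which are lower than basal but short of 2-fold. In bulk RNA, fewer cells that hold a transcript and less of it per cell cannot be told apart. The closest genes over the 3 ratios were Ndc80, the chromatin remodeller gene Chd9 and Arsi, of the arylsulfatase family, at distances of 0.07, 0.08 and 0.08. Ndc80, a kinetochore gene of dividing cells, had signals of 284, 270, 216 and 136.

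Of the 5 other CDK inhibitors, 0 rose at any time and 1, Cdkn3, fell at 12 h, where 5.18% of all genes analysed fell. Cdkn3, which encodes a phosphatase of CDK2 and is high in dividing cells, had signals of 406, 379, 322 and 165, a fall of 2.46-fold. Raising signals to 102 could not change this fall, because all of these signals were above 102. Among INK4 relatives of Cdkn2c the order differed from gene to gene. Cdkn2d (p19) had 441, 463, 355 and 262, with a log2 ratio of -0.75 at 12 h. Cdkn2b (p15) had 621, 610, 674 and 924, with a ratio of 0.57 at 12 h. Cdkn2a, which encodes p16 and ARF and is often lost in 3T3 lines, was clear on all arrays, with 330, 293, 293 and 380. At 12 h Cdkn2c and Cdkn2d were therefore below basal, and Cdkn2a and Cdkn2b above it.

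The D cyclins stayed within 2-fold on all 13 of their probe sets at all 3 times. Ccnd1, the cyclin best known to follow growth factor signals, had signals of 1724, 1892, 1716 and 1311 on 1417420_at; its other probe sets, 1417419_at and 1448698_at, had 982 and 1015 at 12 h, against 1318 and 1400 in basal cells. The 12 h array was the lowest on all 3. The mean log2 ratio at 12 h was -0.43 ± 0.03 (SD over 3 probe sets), against -0.00 ± 0.04 at 2 h and -0.02 ± 0.21 at 0.5 h. The 12 h values agreed closely among the probe sets, but the whole array was also lower, with a median log2 ratio of -0.20 over all probe sets, and with cyclic loess the representative ratio was -0.19. Each of the 3 ratios lay within the range of like probe sets, which for the representative ran from -0.81 to 0.39.

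Ccnd2 had 7 probe sets, all clear on every array. The representative, 1416122_at, had signals of 3155, 3413, 3073 and 3120, and no array stood apart. The mean log2 ratio over the 7 was 0.10 ± 0.18 at 0.5 h, -0.05 ± 0.11 at 2 h and -0.09 ± 0.23 at 12 h (SD over probe sets). The dimmest probe set, 1416124_at, had 125, 171, 137 and 157; at 0.5 h its ratio of 0.45 was the highest of the 7 and lay above its like probe sets (-0.51 to 0.34). The sign of the 12 h ratio of the representative, -0.02, turned to 0.14, 0.17 and 0.14 with median centring, cyclic loess and quantile normalization, so no direction is given.

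Ccnd3 had 1 clear probe set, 1415907_at, with signals of 761, 686, 643 and 557. Each later array was lower than the one before, with log2 ratios of -0.15, -0.24 and -0.45, all inside the ranges of like probe sets. The others, 1444323_at and 1438805_at, had signals of at most 42.6; at 12 h their ratios were -0.51 and -0.71.

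**Figure D2:**
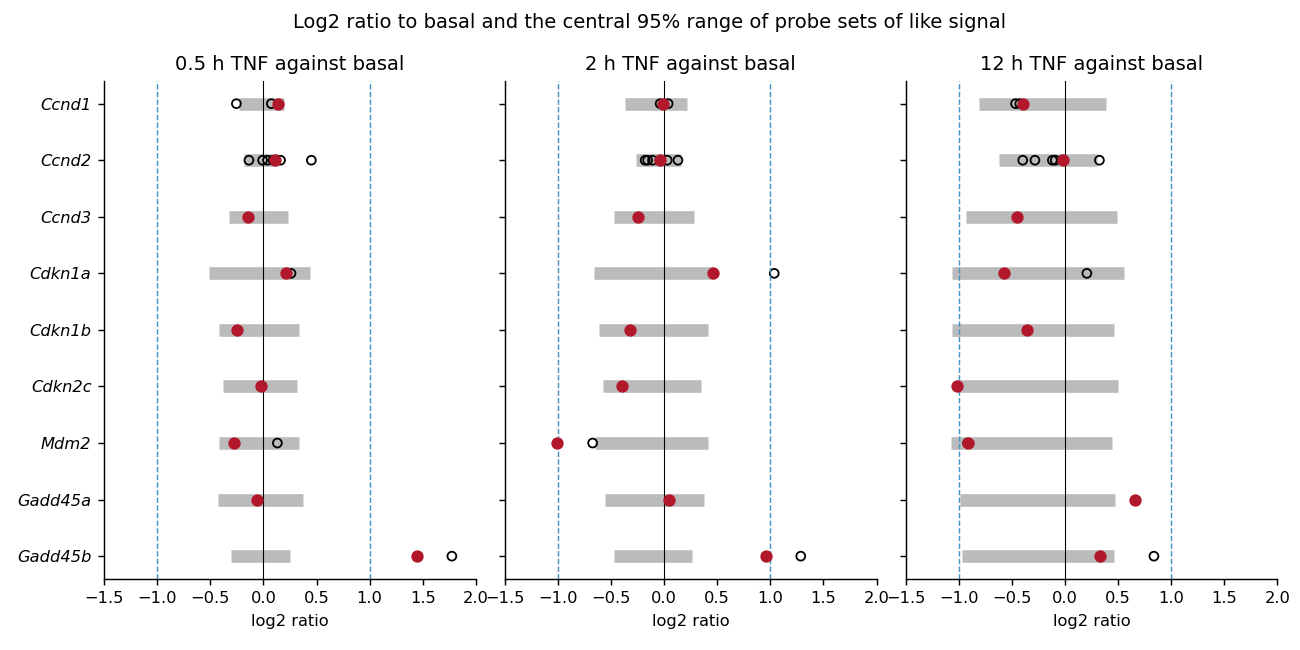
Log2 ratio to basal at 0.5, 2 and 12 h for the representative probe set of each gene (red) and for its other probe sets with a clear signal on at least 1 array (open circles), over the central 95% range of the 1000 probe sets nearest in signal (grey bars); dashed lines mark 2-fold. The red points outside their bars are Gadd45b at 0.5 and 2 h, Mdm2 at 2 h and Gadd45a at 12 h, 4 of 27.

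Of 12 genes listed as partners of the D cyclins and pocket proteins, 0 rose and 0 fell at any time. Over all genes analysed, between 2.55% and 5.18% passed 2-fold in a given direction. The medians of the list were -0.04, -0.19 and -0.25, against -0.03, -0.09 and -0.14 over all genes analysed. At 12 h Ccne1, the cyclin that follows D cyclins in G1, had a log2 ratio of -0.82 (signals of 82.8 at 12 h and 146 in basal cells), E2f1 had -0.73, Rbl1 -0.67 and Rb1 -0.59. The other probe sets of E2f1, which were lower in signal, reached 1.02. Not all of the list was lower at 12 h: 2 genes were above basal and 9 below, with ratios from -0.82 to 0.49.

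The p53 target list held 29 analysed genes of 32, without the 9 genes above. At 0.5 h 2 rose and 0 fell, at 2 h 2 rose and 1 fell, and at 12 h 2 rose and 4 fell. Over all genes analysed, 2.55% rose and 2.96% fell at 0.5 h, 2.58% and 3.60% at 2 h, and 2.79% and 5.18% at 12 h. The counts in the list are too small to read against these shares. The medians of the list were 0.13, -0.08 and -0.22, against -0.03, -0.09 and -0.14 over all genes analysed. Fas, a death receptor gene that NF-kB also induces, had signals of 132, 160, 445 and 310; it rose 3.37-fold at 2 h and stood 2.34-fold above basal at 12 h. Btg2, an antiproliferative gene, had 104, 228, 110 and 47.6, a rise of 2.20-fold at 0.5 h and a fall of 2.18-fold at 12 h. Dram1, a lysosomal gene tied to autophagy, rose at all 3 times from a low signal of 13.4, with 31.2, 41.2 and 81.8.

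Plk3, a stress kinase gene, fell to under the floor at 2 and 12 h, at least 7.08-fold below its basal signal of 64.4. Psrc1 and Gtse1, whose products bind microtubules and peak in dividing cells, fell 2.35-fold and 2.12-fold at 12 h, to 59.8 and 52.5. Another probe set of Psrc1 gave a log2 ratio of 0.00 only because both of its signals were raised to the floor. With signals raised to 102, 1 gene of the list rose at each time and 0 fell. Over the 7312 genes left by that floor, 0.328%, 0.479% and 0.615% rose at 0.5, 2 and 12 h. The shares that fell were 0.0137%, 0.164% and 1.72%. A count of 1 is too few to read against these shares. Among genes short of 2-fold, Sesn1 had log2 ratios of 0.21, -0.62 and -0.85, Perp -0.30, -0.44 and -0.74, Ddit4 0.66, -0.33 and -0.17, and Plk2 0.60, 0.33 and 0.44. Probe sets disagreed for some of these: the other probe set of Plk2 had -0.82, -0.65 and -0.70, and the 4 of Sesn1 ran from -0.85 to 0.06 at 12 h.

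In the list of p53 and its regulators, 11 of 12 genes were analysed, the gene of p53 itself being the one not analysed here. Of the 11, 0 rose or fell at any time, while between 2.55% and 5.18% of all genes analysed passed 2-fold in a given direction. The medians were -0.08, -0.25 and -0.36, against -0.03, -0.09 and -0.14 over all genes analysed. Chek1 and Chek2, the checkpoint kinase genes, had ratios of -0.46 and -0.39 at 2 h and -0.52 and -0.48 at 12 h. Usp7, whose enzyme stabilises MDM2 and p53, had -0.05, -0.25 and -0.36, and the damage kinase gene Atr -0.55, -0.22 and 0.07. Other probe sets of Chek1 and Atr reached 0.35 and 1.38 at 2 h, and those of Usp7 ran from -1.22 to 0.52 at 12 h.

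**Figure D3:**
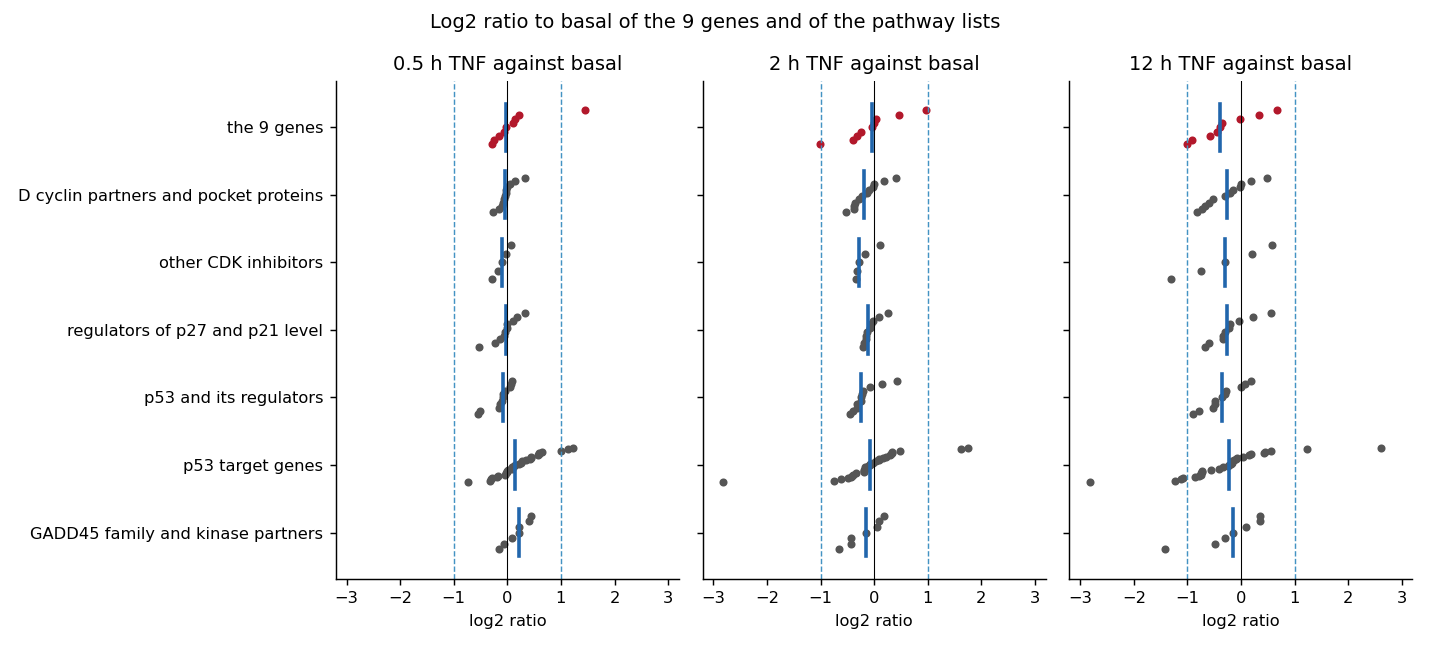
Log2 ratio to basal at 0.5, 2 and 12 h of the 9 genes (red) and of the genes analysed in 6 pathway lists (grey), each point 1 gene and each blue bar the median; dashed lines mark 2-fold. Medians lie between -0.40 and 0.21, and the points farthest from 0 are Plk3 and Dram1 among the p53 targets.

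**Figure D4:**
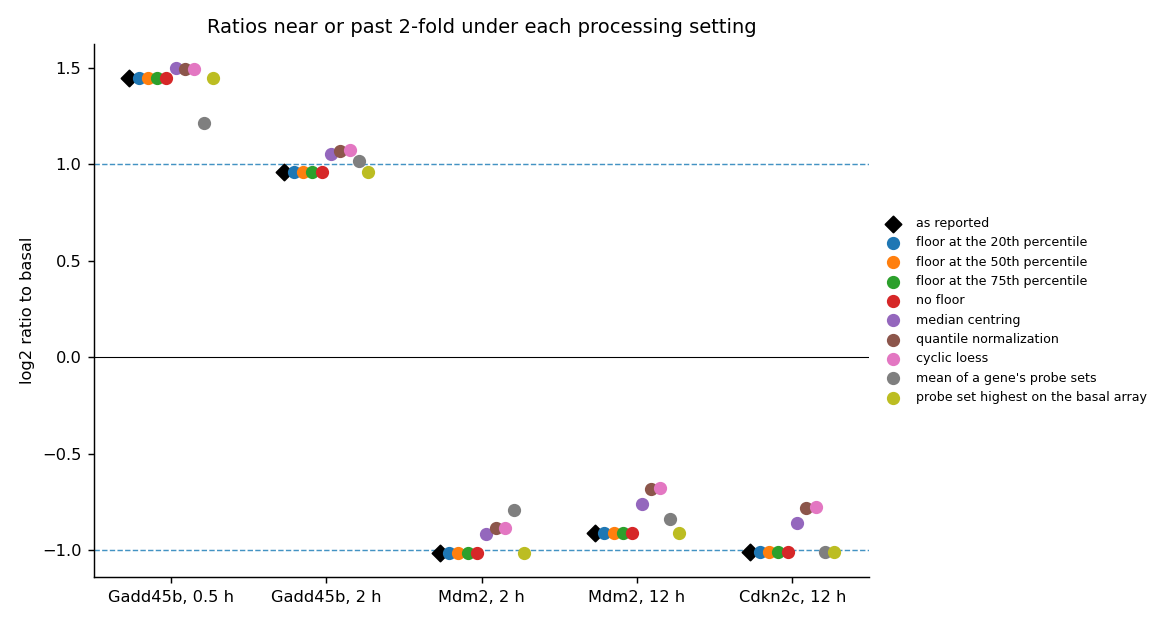
Log2 ratio to basal of Gadd45b at 0.5 and 2 h, Mdm2 at 2 and 12 h and Cdkn2c at 12 h as reported (diamonds) and under 9 alternative floors, scalings and choices of probe set (circles); dashed lines mark 2-fold. Gadd45b at 0.5 h stays between 1.21 and 1.497, while Mdm2 at 2 h and Cdkn2c at 12 h cross the 2-fold line and keep their sign.

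The arrays were close to one another. Over the 10185 probe sets above 102 on all 4 arrays, Pearson's r of log2 signals ran from 0.971 to 0.990, across probe sets, which are not replicates. Median signals were 22.1 (basal), 21.3 (0.5 h), 20.7 (2 h) and 19.9 (12 h). Of 10 fibroblast markers, 8 were clear on all arrays; Thy1 was at most at 14.6 and Pdgfra was clear on 1 array. Of the 6 macrophage and leukocyte, 4 endothelial and 4 epithelial markers, 0 were clear on any array, and Ptprc, Itgam and Cd3e were under the floor on all 4.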

How the data were processed

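The deposited file holds 1 linear intensity per probe set and array, as the authors deposited it; the signal algorithm, array scaling and genome build were not given in the sources used here. Groups came from the sample titles, 1 array each. Probe sets were named from the platform annotation (34958 with 1 gene, 932 with several, which named none), with symbols updated through RefSeq gene IDs of GRCm38.p6. From these intensities, log2 ratios of each TNF array to basal were computed with no further scaling, a floor at the 30th percentile (9.08) and the representative probe set of highest mean log2 signal. No p-value was computed.

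The 9 genes, the lists and the thresholds were chosen with earlier results of these data known. Named were all 9 genes, list members past 2-fold (at most 6 a list, largest first), up to 4 others of clear mean signal with the largest ratios, and the 3 genes closest in pattern to each gene that passed 2-fold. The range over 1000 like probe sets and the promoter search were added after the data were seen. Alternatives were floors at the 20th, 50th and 75th percentile, no floor, median centring, quantile normalization, cyclic loess (limma 3.58.1), the mean of probe sets, the probe set highest in basal cells, and rules of 1.5-fold and 3-fold. The number of arrays limits the precision. Python 3.11.15, numpy 2.4.6 and pandas 2.3.3 were used.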

Additional observations from a re-analysis of the deposited data

How the results depend on the processing

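No paired analysis was possible because each group has 1 array, and the depth limit here is signal: low probe sets scatter past 2-fold. Of 243 log2 ratios of the 9 genes under 9 alternatives, 232 stayed on their side of 2-fold and within 1.5-fold of the reported ratio, and 14 changed sign, all of them ratios short of 2-fold. Floors at the 20th, 50th and 75th percentile, no floor and the probe set highest in basal cells changed no call. They could hardly do so, because they kept the same probe sets, whose signals were nearly all above these floors. The only ratio they changed was that of Cdkn1a at 12 h, from -0.58 to -0.39 with the floor at the 75th percentile. All changes of sign came from the 3 scalings and the mean of probe sets, so the total of 232 overstates the stability. With median centring, quantile normalization, cyclic loess and the mean of probe sets, Mdm2 at 2 h was -0.92, -0.89, -0.89 and -0.79. Under these settings 0 of the 9 genes fell at 2 h, and Gadd45b passed 2-fold, as the 1 gene that rose. Over all genes analysed, 481, 490, 506 and 276 rose and 470, 462, 448 and 383 fell at 2 h in the same order. With the 3 scalings Cdkn2c at 12 h was -0.86, -0.78 and -0.77, and 0 of the 9 genes fell. Over all genes analysed, 579, 555 and 531 fell at 12 h with these scalings. The median of the 9 genes at 12 h was -0.24, -0.20 and -0.19 with the 3 scalings and -0.19 with the mean of probe sets, in place of -0.40. The median over all genes analysed moved too. It was 0 with each of the 3 scalings and -0.13 with the mean of probe sets, in place of -0.14. With the 1.5-fold rule 1 of the 9 genes rose at 2 h, and 1 rose and 2 fell at 12 h. Of the 16270 genes analysed, 1111 rose at 2 h by this rule, and 1236 rose and 2639 fell at 12 h. With the 3-fold rule 0 of the 9 rose at 0.5 h and 0 fell at 2 or 12 h. By that rule 80 of all genes analysed rose at 0.5 h, 91 fell at 2 h and 157 fell at 12 h. Counts among 9 genes are too small to read against these. The scalings move the ratio of every gene because the arrays' own medians differ: over all probe sets the log2 ratio to basal had medians of -0.05 (0.5 h), -0.12 (2 h) and -0.20 (12 h).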
